A study of Mus musculus with 12 samples.

Results

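The loci H19, Igf2, Dlk1, Meg3 and Rasgrf1 belong to imprinted domains of the mouse whose methylation mark is laid in sperm, and their rows were taken from a table of CpG methylation in the heart. A row of the table is 1 cytosine of a CpG, and every row inside a member gene or within 10 kb of either end was kept, rows with missing values included. This gave 102 of the 421177 rows. They were spread over only 3 of the 5 members, with 9 rows at H19, 53 at Igf2 and 40 at Rasgrf1. Dlk1 and Meg3 had 0 rows each, so the Dlk1-Meg3 domain was not measured by this rule.

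The study measured methylation by reduced representation bisulfite sequencing (RRBS) in the left ventricle of wild-type FVB/N offspring at 3 weeks of age, with 12 samples and 1 library per sample. In RRBS the enzyme MspI cuts DNA at CCGG, short fragments are sequenced after bisulfite treatment, and the percentage of reads that keep a cytosine is the methylation level. The ventricle holds several cell types, so a change in their shares and a change of methylation within cells cannot be told apart. The design asks whether the diet of the mother is accompanied by different methylation in the heart of her weaned young. Virgin females received a high-fat diet (HFD, Teklad TD.06415) or a regular diet (RD, PicoLab 5L0D) from 6 weeks of age, and were mated after 8 weeks on it with a male fed RD. The groups were 3 HFD female offspring (numbered 2, 3 and 4 in the labels), 3 HFD male offspring (2, 3 and 4), 4 RD female offspring (1 to 4) and 2 RD male offspring (1 and 2). All fathers were on RD, and no group carried an engineered allele. The labels do not say which mother or litter a sample came from, so siblings may count as separate samples. HFD libraries carry the numbers 2 to 8 and RD libraries 9 to 14 in the labels, so library order and diet cannot be told apart.

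Imprinted genes are expressed from only one parental allele, and the choice is set by a region whose DNA is methylated on one allele only. At the H19 and Igf2 domain this region lies upstream of H19. On the maternal copy it is unmethylated and is bound by the insulator protein CTCF, so that shared enhancers reach H19. On the paternal copy it is methylated, and the enhancers reach Igf2, a growth factor of the fetus that falls silent in most mouse tissues after birth. H19 is a long non-coding RNA, Meg3 is the maternally expressed non-coding RNA next to the paternally expressed Dlk1, a membrane protein related to Notch ligands, and Rasgrf1 encodes an exchange factor that activates Ras. DNA methylated on one allele only reads near the middle of the scale when both alleles are sequenced together.

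The sequences upstream of 3 starts of transcription are shown because runs of rows near 0 lie beside them, 2 of which hold rows that differed between mice. The sequences are from RefSeq on GRCm38.p6, 250 bases ending just before each start, 5′ to 3′ on the strand of the gene, with every CG in capitals. Rasgrf1 on the plus strand occupies chr9:89909525-89909774, and the Igf2 starts on the minus strand occupy chr7:142661272-142661521 and chr7:142658805-142659054.
Rasgrf1, start at 89909775: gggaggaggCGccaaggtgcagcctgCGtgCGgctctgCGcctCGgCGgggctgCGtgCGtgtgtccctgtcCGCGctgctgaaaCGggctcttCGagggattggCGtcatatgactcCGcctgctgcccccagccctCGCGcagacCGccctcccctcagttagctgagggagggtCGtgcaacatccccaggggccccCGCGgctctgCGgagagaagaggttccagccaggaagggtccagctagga
Igf2, start at 142661271: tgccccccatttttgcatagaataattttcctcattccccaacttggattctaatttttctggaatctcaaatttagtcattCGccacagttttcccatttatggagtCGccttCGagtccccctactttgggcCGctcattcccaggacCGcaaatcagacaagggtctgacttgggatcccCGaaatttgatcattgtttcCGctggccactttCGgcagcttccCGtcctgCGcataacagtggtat
Igf2, start at 142658804: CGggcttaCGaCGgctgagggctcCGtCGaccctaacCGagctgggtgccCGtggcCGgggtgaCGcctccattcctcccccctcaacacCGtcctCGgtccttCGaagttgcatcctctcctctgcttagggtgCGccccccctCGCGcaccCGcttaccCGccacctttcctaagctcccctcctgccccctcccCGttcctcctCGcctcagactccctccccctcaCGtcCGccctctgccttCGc
They hold 21, 10 and 22 CG dinucleotides. RefSeq windows of 300 bases (250 before and 50 from the start on) were matched for Igf2 (4 starts), Rasgrf1 (1), Dlk1 (1) and Meg3 (2), and H19 had none. The MspI site CCGG was present in the windows of the Igf2 starts at 142658804 and 142657496 and in the first Meg3 window, and absent from the others. It was present in 52.8% of all 32851 windows. The core letters TGCCGC, bound by the imprint guard ZFP57 where methylated, were found on either strand in 1 window of Igf2 (start at 142661271) and in the first of Meg3, against 11.6% of all windows. The core motif of CTCF was found on either strand in none of the 8 windows and in 0.0365% of all. No row of the table lay inside any of these 8 windows. The rows lay to either side.

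The positions of the table match GRCm38. Of 39856 rows that fell in RefSeq windows, 48.6% lay on the C and 51.3% on the G of a CG, and 8 rows lay on another base. A row is thus 1 cytosine on 1 strand, and the submitters' processing notes name the build mm10. Values per sample ranged from 385299 (HFD male 4) to 417081. Mean methylation of chromosome X was 53.0 to 55.3% in the libraries labelled female and 46.4 to 46.9% in those labelled male, so the sex labels separated. To check the tissue label, rows within 1 kb of the RefSeq starts of marker genes were examined. For cardiomyocytes 3 of 9 markers had rows, with means of 1.99% at Ryr2, 33.7% at Tnni3 and 73.5% at Nppa. For endothelial cells 2 of 5 had rows (Kdr 5.77%, Tie1 42.2%), for fibroblasts 2 of 4 (Pdgfra 1.62%, Col1a2 12.6%), for leukocytes 1 of 4 (Cd3e 72.6%), and for liver and skeletal muscle 0 of 3 each. These levels do not single out cardiomyocytes, so they do not check the tissue label. The table gives no read counts, and without a known depth no interval can be given to a single percentage.

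The nearest row to Dlk1 (chr12:109452485-109463336) lay 100.096 kb away, and the nearest to Meg3 (chr12:109540996-109571729) lay 153.209 kb away. Nothing lay within 50 kb of either. The row nearest to Dlk1 lies on the other side, below the start of that gene. The row nearest to Meg3 is on the side of Mirg, a non-coding RNA gene of the same domain. Among the listed genes measured on that side, Mirg, with 8 complete rows, is the closest. Mirg was singled out after its values were seen. Its locus mean was 38.3, 38.5 and 37.3% in the HFD females, 39.8, 39.9 and 37.9% in the HFD males, 39.96, 39.99, 42.4 and 41.5% in the RD females, and 42.0 and 41.9% in the RD males. The HFD samples all lay below the RD samples, which was so for 0.614% of all genes tested in either direction. The means were 38.6% ± 1.05 and 41.3% ± 1.05 (SD, n = 6 each), a difference of -2.65 percentage points with adjusted p = 0.390 (limma). It did not pass the threshold of 0.05.

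The 3 measured members had different profiles. All but 1 of the 9 H19 rows had mean methylation between 20 and 80%, a share of 88.9%, against 19.9% of the 410439 autosomal rows of the table. At Igf2, 38 rows lay under 20%, 11 in between and 4 over 80%. At Rasgrf1 the counts were 26, 5 and 9. Over all 102 rows, 62.7% lay under 20%, 23.5% between and 13.7% over 80%, where all autosomal rows gave 52.4, 19.9 and 27.7%. The H19 rows did not gather at the middle of the scale, since 4 row means were 21.0 to 31.0%, 1 was 47.1% and 4 were 67.8 to 85.4%. The highest and lowest row means were 85.4 and 21.0% at H19, 98.3 and 0% at Igf2, and 97.7 and 0.154% at Rasgrf1.

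**Figure D1:**
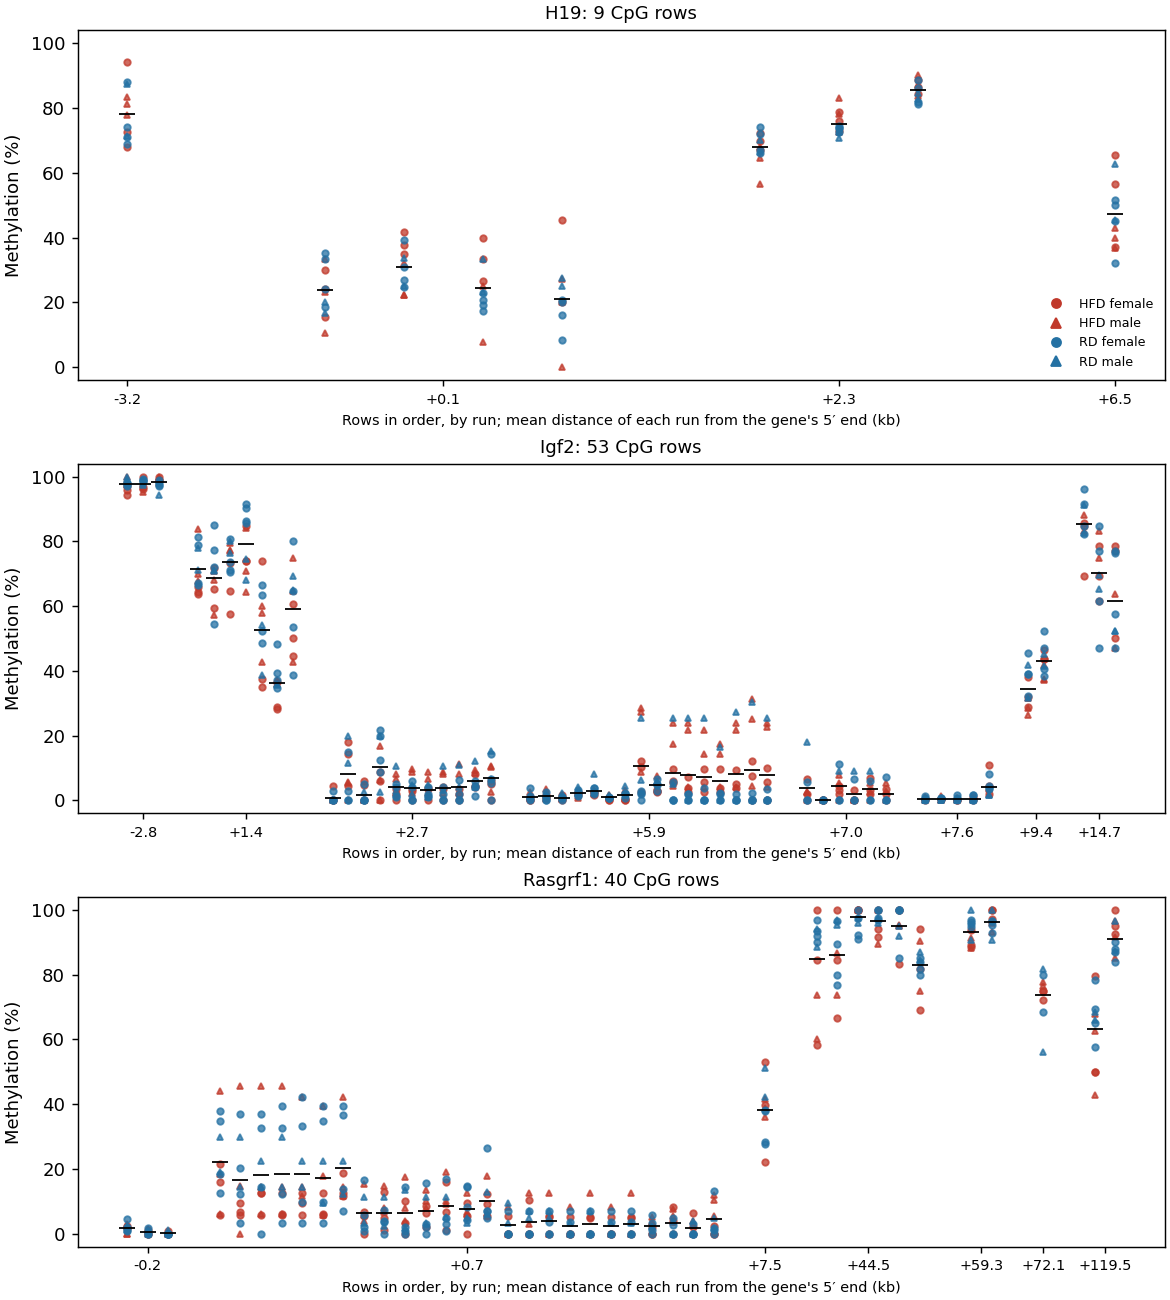
Methylation (percent) of every row at H19 (9 rows), Igf2 (53) and Rasgrf1 (40), in order from the 5′ end of the gene and grouped into runs of neighbouring rows. Each symbol is 1 sample (circles female, triangles male, red HFD, blue RD) and the black bar is the mean; spacing within the plot is not to scale, and the axis labels give the mean distance of runs from the 5′ end. The H19 rows lie in a lower set of 4 (21.0 to 31.0%), a single row at 47.1% and a higher set of 4 (67.8 to 85.4%), while Igf2 and Rasgrf1 hold long runs near 0%.

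H19 (chr7:142575530-142578146, minus strand) had its rows in 2 short runs inside the gene and 2 single rows outside it. The run at the 3′ end, chr7:142575795-142575863, had 3 rows, 265 to 333 bp inside the gene, and averaged 76.1%. Its sample means were 79.0, 78.3 and 74.7% in the HFD females, 72.8, 79.4 and 75.8% in the HFD males, 78.8, 73.6, 75.3 and 76.0% in the RD females, and 73.9 and 75.2% in the RD males. These are the steadiest values of the locus, and the diets overlapped. The run at the 5′ end, chr7:142578057-142578144, had 4 rows that reached to 2 bp from the annotated end of the gene, and the row means were 21.0 to 31.0%. Only 2 of these 4 rows were complete, and the other two lacked 1 sample each. Over the 2 complete rows the sample means ran from 16.4% (HFD male 3) to 37.3% (RD female 4), with 27.3% ± 6.51 in HFD and 27.4% ± 5.74 in RD (SD, n = 6 each). H19 was thus methylated at the 3′ end and much less so at the 5′ end in every sample.

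The 2 single rows flank the gene. The row at chr7:142581387 lies 3241 bp upstream of the 5′ end, on the side where the control region of the domain is known to lie, although no file used here marks its borders. It read 68.0, 94.1 and 72.7% in the HFD females, 83.3, 77.8 and 81.3% in the HFD males, 69.0, 71.2, 74.0 and 87.9% in the RD females, and 71.4 and 87.5% in the RD males. The mean was 78.2%, above the middle of the scale, and both diets spanned most of the range. The row at chr7:142571641, 3889 bp beyond the 3′ end, averaged 47.1% and ran from 32.0% in RD female 3 to 65.6% in HFD female 4.

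Igf2 (chr7:142650768-142666816, minus strand) has 4 RefSeq starts and held 8 runs of rows. From the 5′ end, the first run lies 2818 to 2841 bp upstream of the gene (chr7:142669634-142669657) and was nearly fully methylated at 98.0%, with every sample mean between 96.4 and 98.9%. Its 3 rows also lie within 10 kb of Ins2, an insulin gene. The next, chr7:142665138-142665589, lies 1227 to 1678 bp downstream of the first start and was intermediate. Its 7 rows averaged 62.9%, and single rows ran from 36.2 to 79.1%. In the middle of the gene, 4 runs held 38 rows near 0. They averaged 4.78% (chr7:142663915-142664387, 11 rows), 5.10% (chr7:142660805-142660947, 16 rows), 2.60% (chr7:142659795-142659845, 6 rows) and 1.20% (chr7:142659194-142659267, 5 rows). Toward the 3′ end methylation was higher again, at 38.7% in 2 rows 88 to 154 bp downstream of the last start (chr7:142657342-142657408) and 72.5% in 3 rows near the end of the gene (chr7:142652084-142652146). RD female 2 and RD male 1 have no mean in the run at 142659795, and HFD male 3 has none at 142652084. The rows from 142659795 upward also lie inside Igf2os, a gene annotated over the same stretch, and cannot be assigned to one of the 2 genes.

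The run of 2 rows next to the last Igf2 start was intermediate in every sample. It read 39.1, 40.9 and 36.2% in the HFD females, 31.8, 33.1 and 36.7% in the HFD males, 36.3, 48.8, 38.7 and 43.1% in the RD females, and 41.6 and 38.4% in the RD males. The HFD mean was 36.3% ± 3.48 and the RD mean 41.2% ± 4.46 (SD, n = 6 each), and the samples overlapped. With 2 rows it was too short for the test of tiles, which asked for 3.

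In 4 places at the members both cytosines of a CpG had a row, the first on the plus and the second on the minus strand. At Igf2 142665182 the plus strand averaged 36.2% and the minus strand 52.6%, a gap of 16.4 points, with the minus strand higher in 11 of 12 samples. Of the 6909 autosomal pairs of this kind in the table, 96.6% differed by less, and the median difference was 1.53 points. Those pairs cover all levels of methylation, and intermediate pairs were not compared on their own. At Igf2 142660876 the plus strand averaged 4.70% and the minus strand 10.7% (84.9% of pairs differed by less). The pair at Igf2 142665553 gave 73.5 and 68.6% (80.1%), and the pair at Rasgrf1 89910261 gave 7.53 and 10.1% (63.5%).

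The 16 rows of Igf2 at 142660805, 324 to 466 bp downstream of the start at 142661271, split into rows that varied between mice and rows that varied less. The split used the highest value of any sample in each row and was made after the values were seen. Low values in the other rows thus follow from the rule, and the split carries no test. In the 8 varying rows (142660805 to 142660868 and 142660877), the mean was 5.86, 2.56 and 10.1% in the HFD females, 21.9, 4.80 and 23.0% in the HFD males, 0.357, 0.588, 2.83 and 0.266% in the RD females, and 1.42 and 25.2% in the RD males. The 3 samples above 20% were all males, from both diets, and the remaining 2 males read like the females. Over the 8 other rows of the run no sample mean exceeded 3.73%. The high samples were high at each varying row. The pair of strands at 142660876 was divided between the sets, with the plus-strand row among the low rows and the minus-strand row among the varying ones. Neighbouring rows can share sequenced fragments, so the 8 rows are not 8 separate measurements.

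Rasgrf1 (chr9:89909508-90026979, plus strand) also had rows that varied between mice just inside the gene. Its 3 rows 399 to 450 bp upstream of the start (chr9:89909325-89909376) averaged 0.853%, and no sample mean exceeded 2.11%. The 25 rows 238 to 642 bp downstream of the start (chr9:89910013-89910417) averaged 8.69%. The first 7 of them read 12.9, 6.72 and 11.2% in the HFD females, 15.5, 43.6 and 6.88% in the HFD males, 32.2, 38.9, 12.1 and 5.60% in the RD females, and 13.99 and 25.7% in the RD males. HFD male 3, RD female 1, RD female 2 and RD male 2 stood above 20%, which again crosses both diets. Over the remaining 18 rows the sample means were 1.53 to 11.6%, with HFD male 3 the highest. These rows varied as well, and 89910262 reached 26.5% in RD female 1. The division was drawn at a gap between rows, not by their values as at Igf2, and also after the values were seen.

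**Figure D2:**
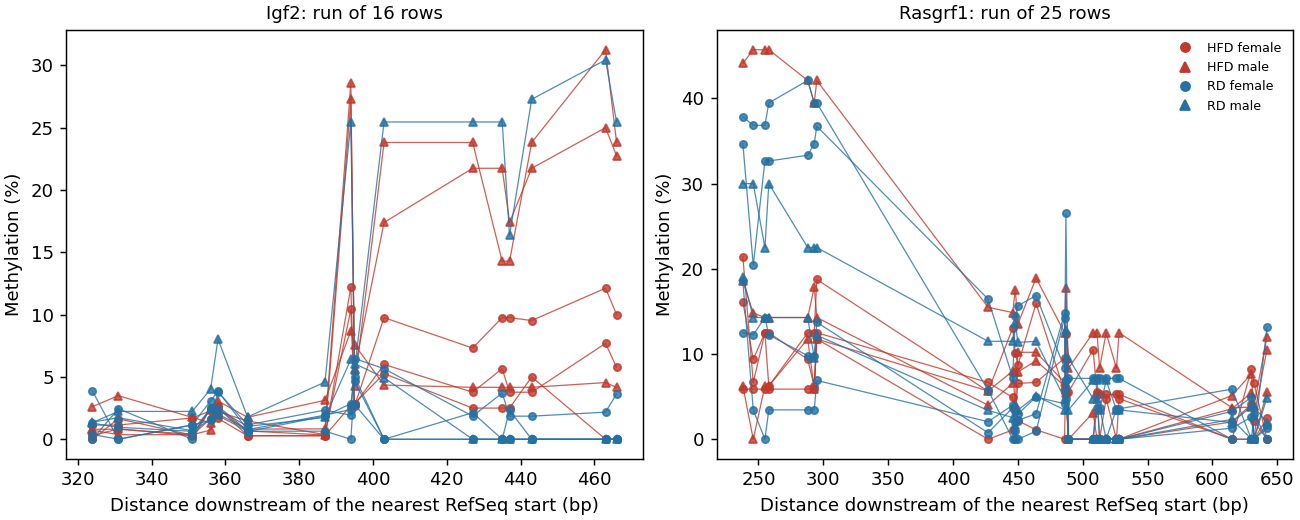
Methylation (percent) of each row against its distance downstream of the nearest RefSeq start (bp) for the 16-row run of Igf2 and the 25-row run of Rasgrf1. Each line joins the rows of 1 sample (circles female, triangles male, red HFD, blue RD). At Igf2 3 males stand apart in the rows far from the start, and at Rasgrf1 4 samples stand above 20% on average in the 7 rows near the start.

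Deeper in Rasgrf1 the rows were methylated. A single row at 89916977, 7202 bp downstream of the start, averaged 38.1%, with 52.9, 39.6 and 22.2% in the HFD females, 38.9, 41.7 and 36.0% in the HFD males, 38.2, 38.0, 27.6 and 28.3% in the RD females, and 51.3 and 42.3% in the RD males. It was the only run of the gene between 20 and 60%. Runs far inside the gene averaged 90.5% (chr9:89953873-89954170, 6 rows, no mean for HFD male 4) and 94.8% (chr9:89968794-89968847, 2 rows). A row at 89981612, measured in 9 samples, averaged 73.7%, and 2 rows 2004 to 2039 bp past the end of the gene averaged 77.1%. The known control region of Rasgrf1 lies well upstream of the gene, beyond the 10 kb searched, so the rows describe the promoter island and the gene body.

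For the comparison of the diets, 1 value per mouse and locus was formed, the mean over the rows with a value in all 12 samples (7 at H19, 44 at Igf2 and 33 at Rasgrf1). The H19 mean was 57.7, 64.4 and 60.0% in the HFD females, 58.6, 55.5 and 55.8% in the HFD males, 57.8, 55.1, 56.0 and 63.2% in the RD females, and 56.8 and 58.9% in the RD males. The group means were 58.7% ± 3.25 in HFD and 58.0% ± 2.87 in RD (SD, n = 6 each). The difference adjusted for sex was 1.05 points, with a 95% confidence interval of -2.51 to 4.61 and adjusted p = 0.943 (limma, Benjamini-Hochberg over 24902 gene loci). HFD female 3 and RD female 4 were the highest, 1 from each diet.

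The Igf2 mean was 20.7, 19.9 and 19.7% in the HFD females, 22.6, 21.6 and 25.1% in the HFD males, 19.8, 21.3, 21.7 and 20.7% in the RD females, and 20.4 and 26.2% in the RD males. The group means were 21.6% ± 2.02 and 21.7% ± 2.33, and the sex-adjusted difference was -0.541 points (95% interval -2.67 to 1.59, adjusted p = 0.952, limma). Averaged over only the rows with a mean of 20 to 80%, the plain difference between the group means, -0.0857 points over all complete rows, was -5.01 points with adjusted p = 0.399 (limma), since the many rows near 0 and the few near 100% then drop out. The Rasgrf1 mean was 18.3, 14.5 and 15.2% in the HFD females, 17.4, 27.2 and 14.2% in the HFD males, 21.8, 22.6, 15.5 and 14.05% in the RD females, and 16.9 and 21.0% in the RD males. The group means were 17.8% ± 4.87 and 18.7% ± 3.62, and the sex-adjusted difference was -1.19 points (95% interval -6.34 to 3.95, adjusted p = 0.950, limma). Over the rows of 20 to 80% the plain difference between the group means, -0.838 points over all complete rows, was -4.44 points (adjusted p = 0.723, limma).

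The diets overlapped at all 3 loci. By limma 0 of 3 loci passed the adjusted threshold and 0 passed an unadjusted p of 0.05, where over all genes 0.0361% and 7.45% did. The spread between mice was itself larger at Rasgrf1 than at most genes, since 88.4% of gene loci had a smaller SD over the 12 samples, against 75.9% for H19 and 58.3% for Igf2.

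**Figure D3:**
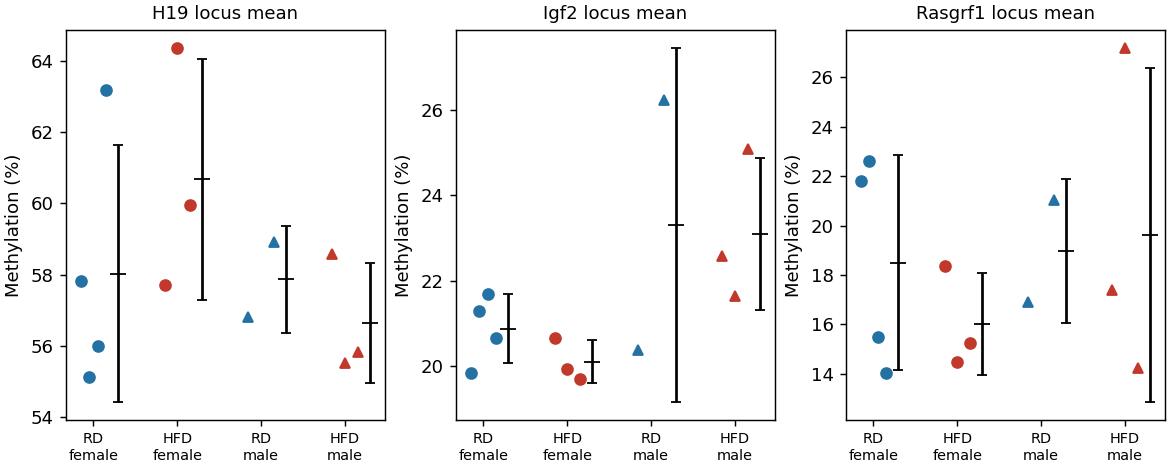
Mean methylation (percent) of the complete rows at H19, Igf2 and Rasgrf1 for each sample, by maternal diet and sex. Each symbol is 1 sample, and the bar gives the group mean with 1 SD (n = 4 RD females, 3 HFD females, 2 RD males and 3 HFD males); the axes do not start at 0. The diets overlap in each panel, and RD male 2 (26.2% at Igf2) and HFD male 3 (27.2% at Rasgrf1) are the highest values.

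Single rows gave the same answer. Of the 84 complete rows, 34 had a mean under 5% and 4 over 95%, and the remaining 46 were tested. By limma 0 of 46 passed the adjusted threshold, where 0.0102% of the 157524 rows tested over the genome did. At an unadjusted p of 0.05, 1 of 46 passed, beside 6.53% of all rows. Methylation was lower in HFD at 27 of the 46 rows and higher at 19, with a median difference of -1.44 points, beside 52.9% lower and a median of -0.259 over all rows tested. In 0 of the 46 rows did the 2 diets not overlap, beside 0.482% of all. Of the 19 rows with a mean of 20 to 80%, 15 were lower in HFD with a median of -3.39 points. Of all 60636 such rows, 33941 were lower, with a median of -0.761. Rows of 1 run can share fragments and are not independent.

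The row with the smallest p at H19 was 142575817 in the 3′ run, at 76.9% ± 3.96 in HFD and 73.0% ± 1.25 in RD (SD, n = 6 each; adjusted p = 0.894, limma). At Igf2 it was 142660877, the minus-strand row of the varying set, at 14.98% ± 10.5 and 6.50% ± 9.52 (adjusted p = 0.777, limma). At Rasgrf1 it was 89968794, deep in the gene, where the HFD samples read 88.6, 89.1, 93.8, 94.1, 88.4 and 91.3% and the RD samples 94.6, 95.7, 96.4, 97.0, 90.8 and 100%. Most HFD samples were lower there, but the ranges met, and a difference of -4.88 points gave adjusted p = 0.693 (limma).

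In all, 6 tiles of 500 bp held at least 3 complete rows and had a tile mean of 5 to 95%, namely 1 at H19, 4 at Igf2 and 1 at Rasgrf1. By limma 0 of 6 passed the adjusted threshold, beside 0.0294% of 23776 tiles, and 1 passed an unadjusted p of 0.05, beside 7.81%. Methylation was lower in HFD in 4 of the 6, beside 53.3% of all tiles, and in 0 of the 6 were the diets apart, beside 0.627%. The 1 tile was the 5′ end of the intermediate run of Igf2, 4 rows at chr7:142665539-142665589. It read 63.7, 73.6 and 67.4% in the HFD females, 74.2, 72.3 and 71.2% in the HFD males, 76.1, 77.0, 74.8 and 80.2% in the RD females, and 73.4 and 74.2% in the RD males. Every HFD female lay below every RD female, whereas the males of both diets lay within 71.2 to 74.2%. The tile was picked for its diet p. How many of all tiles separate the females alone was not counted, so this order is a description only. The means were 70.4% ± 4.07 and 76.0% ± 2.45, a sex-adjusted difference of -5.71 points (95% interval -10.1 to -1.35) with adjusted p = 0.562 (limma). Within females the difference was -8.82 points (adjusted p = 0.622) and within males -1.26 points (adjusted p = 0.982), by limma. The interaction of diet and sex did not pass (adjusted p = 0.989, limma), so the sexes were not shown to differ. The other tiles differed by 1.20 points at H19 (142575795, adjusted p = 0.917), by 2.82, -1.87 and -4.34 points at Igf2 (142660805, 142664367 and 142665138, adjusted p = 0.830, 0.844 and 0.861) and by -0.840 points at Rasgrf1 (89910013, adjusted p = 0.952), all by limma.

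Between the sexes the Igf2 locus gave the smallest p, but none passed. The Igf2 mean was 20.5% ± 0.761 in the 7 females and 23.2% ± 2.43 in the 5 males (SD), a difference of -2.64 points with adjusted p = 0.851 (limma). HFD male 2, HFD male 4 and RD male 2 exceeded every female, while HFD male 3 and RD male 1 lay among them. H19 differed by 2.03 points (females higher, adjusted p = 0.913) and Rasgrf1 by -1.92 (adjusted p = 0.950), by limma. By limma 0 of 3 loci passed the adjusted threshold and 1 passed unadjusted, beside 0.0241% and 5.65% of all genes. Of the 46 rows 0 passed the adjusted threshold (0% of all rows) and 8 passed unadjusted, all at Igf2, beside 5.3% of all rows. They were 6 of the varying rows, where males averaged higher, and 142665539 and 142665553 in the intermediate run, which differed in opposite directions. At these 6 varying rows the female means were 2.51 to 4.64%. Such rows met the limit of 5% on the mean only through the males, so 8 of 46 cannot be compared with the 5.3%. The tile of the varying run read 2.43% ± 1.73 in females and 8.82% ± 5.58 in males, with adjusted p = 0.810 (limma), and it rests on the same 3 males. Of the 6 tiles 0 passed adjusted, beside 0.0168% of all, and 1 unadjusted, beside 5.56%. That 1 was the tile of the varying run. Its mean of 5.10% met the limit of 5% only through the males, so 1 of 6 cannot be compared with the 5.56% either.

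The interaction of diet and sex was 3.86 points at H19, -0.564 at Igf2 and -3.11 at Rasgrf1 (adjusted p = 0.965, 0.992 and 0.981, limma). None of the 3 loci passed unadjusted, beside 5.01% of all genes. With only 2 RD males, the contrast within males and the interaction rest on few mice.

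Gene loci whose 12 locus means were most like those of H19, among 15581 genes with at least 10 complete rows, were Erc2 (Pearson r = 0.824), Ficd (0.803), Gldc (0.770), Mir7226 (0.763) and Piwil4 (0.754), over 12 samples. They were picked as the highest of many and are a description only.

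Genes beside the members were listed by domain. On distal chromosome 7, 8 of 8 listed genes were measured and by limma 0 passed, adjusted or unadjusted, with 6 lower and 2 higher in HFD and a median difference of -1.52 points, beside 0.0361% and 7.45% passing and 50.2% lower over all genes. The Ins2 locus holds the same 3 rows as the Igf2 run at 142669634, so the listed genes are not all separate from the members. Among the 8, Th (tyrosine hydroxylase) had 36.8% in HFD and 39.2% in RD, and Tnni2, a troponin of fast muscle, had 76.7 and 79.9% (adjusted p = 0.690, limma). On chromosome 12, 4 of 6 were measured, 0 passed by limma and 1 (Mirg) passed unadjusted, beside 7.45% of all genes, and the median was -1.79. Dio3, the thyroid hormone deiodinase at the far end of the domain, had 19.4% in both diets. On chromosome 9, 2 of 3 were measured and none passed, adjusted or unadjusted. The other locus known for a paternal germline mark, with Zdbf2 and Gpr1, differed by -0.818 and -1.52 points (adjusted p = 0.936 and 0.870, limma).

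Loci whose imprint is laid in oocytes, on the maternal copy, were listed for comparison. Of 24 listed, 22 were measured, 18 were lower in HFD and the median was -3.32 points, beside 50.2% lower and a median of -0.0057 over all 24902 genes. By limma 2 passed the adjusted threshold, both lower, and 11 passed unadjusted, beside 0.0361% and 7.45% of all genes. Impact, a regulator of translation, had 54.8% ± 3.62 in HFD and 85.7% ± 4.32 in RD (adjusted p = 0.0013, limma), and Peg13, a non-coding RNA, had 58.3% ± 3.94 and 78.1% ± 1.55 (adjusted p = 0.0013, limma). Plagl1, a zinc finger factor, had the third largest difference, -14.1 points (adjusted p = 0.119, limma). The list was chosen with earlier results of these data known, so its counts beside all genes are a description and not a test. Several listed genes share rows (Igf2r with Airn, Sgce with Peg10), and whether the paternal and the maternal lists differ was not tested.

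**Figure D4:**
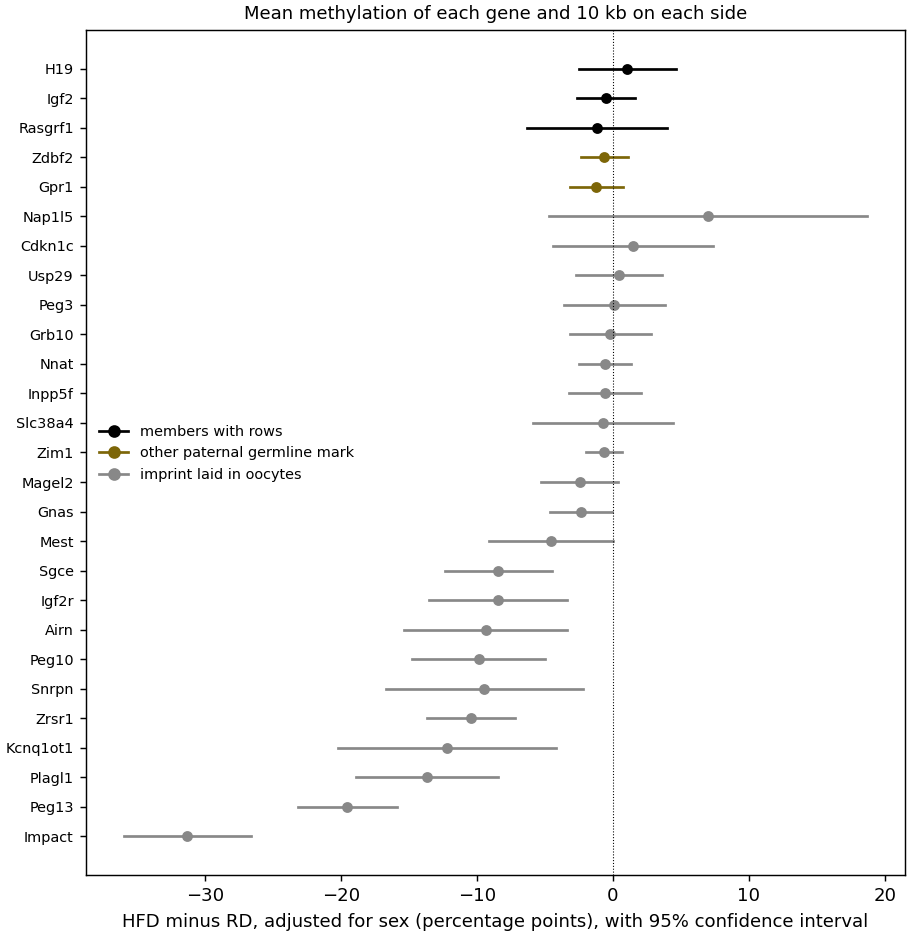
Difference of mean methylation between HFD and RD offspring (percentage points, adjusted for sex, with the 95% confidence interval) for the 3 member loci with rows, 2 genes with another paternal mark and 22 genes whose imprint is laid in oocytes. Dots left of the dotted line are lower in HFD. The genes were chosen with earlier results of these data known. H19 (1.05), Igf2 (-0.541) and Rasgrf1 (-1.19) lie near 0, and Impact and Peg13 lie farthest to the left.

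The genes that carry the Igf2 growth signal were listed as well. Of 14, 13 were measured, 0 passed by limma and 2 passed unadjusted, with 10 lower, 3 higher and a median of -0.0952, beside 7.45% unadjusted and 50.2% lower over all genes. The 2 were Igf2r, the receptor that clears Igf2 (56.2% in HFD, 64.4% in RD, adjusted p = 0.392, limma), which is also among the oocyte loci, and Irs1, an adaptor of the insulin and Igf1 receptors (31.0 and 28.0%, adjusted p = 0.639, limma). Igf1r, the receptor through which Igf2 acts, had 32.2 and 32.3%. Of 12 readers and guards of imprints, 12 were measured, 0 passed by limma and 1 passed unadjusted, with 9 lower and 3 higher, beside the same shares over all genes, so 1 of 12 is near the background. It was Trim28, a partner of ZFP57, at 28.2 and 31.4% (adjusted p = 0.503, limma), while Ctcf had 22.4 and 24.2% and Dnmt1 64.0 and 64.3%.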

How the data were processed

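Left ventricle DNA of 12 mice was profiled by RRBS. The deposited table gives percent methylation per cytosine and sample, computed by the authors, per the file headers and the value range. Per the submitters' processing notes FastQC, Trim Galore, Bismark 0.19, limma and the build mm10 were used; the coverage minimum and the treatment of strands are not given in the sources used here. All 12 columns matched 1 sample each. The members and lists were chosen with earlier results of these data known.

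Rates were transformed as log2((rate + 0.05)/(1 - rate + 0.05)) and fitted with limma 3.58.1 (R 4.3.3), with diet and sex as terms, over all autosomal features: rows complete in 12 samples with a mean of 5 to 95%, non-overlapping tiles of 500 bp with at least 3 complete rows and the same limit on the tile mean, and gene loci (gene and 10 kb on each side) with at least 3 complete rows and no limit on the mean. Two-sided p-values were adjusted (Benjamini-Hochberg) over each whole table, with a threshold of 0.05. Within-sex contrasts and the interaction came from a model of 4 group means. Intervals are 95% intervals on untransformed percentages. The labels name no litter, so p-values measure only the spread between these mice. Rows closer than 500 bp were joined into runs.

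Named features were, per member, the row with the smallest diet p and the highest and lowest row. All tiles and runs of 3 or more rows were named as well. Among the oocyte loci, genes past the threshold and the 3 largest differences were named. Genes named from the other lists do not follow this rule. Other genes and the shorter runs were named after their values were seen. Gene positions and windows are from RefSeq GRCm38.p6. Rows at marker genes were counted within 1 kb of RefSeq starts. Alternatives covered the offset, scale, variance model, sex term, replicate block, missing values, mean limits, tile and flank sizes, and each sample left out. Figures were drawn with matplotlib 3.10.9.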

Additional observations from a re-analysis of the deposited data

Results flagged for a closer look

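Values were examined for a single sample far from the rest of its diet group, by Dixon's criterion at the 95% level. Of 48 groups of up to 6 samples, 7 met it where chance gives about 2.4. Several of the 7 are the same rows seen at different scales. The run and the tile at 142660805 hold identical values, as do those at 89910013, so the 7 cannot be read as an excess over 2.4. At Igf2 the sample is RD male 2. Its locus mean was 26.2% where the other RD samples had 19.8 to 21.7%, its mean over the 16-row run (and tile) at 142660805 was 14.4% where the others had 0.906 to 2.47%, and its value at the row 142660877 was 25.5% where the others had 0 to 6.41%. At Rasgrf1 the sample is HFD male 3, with a locus mean of 27.2% where the other HFD samples had 14.2 to 18.3%, and 20.6% over the 25-row run (and tile) at 89910013 where the others had 2.98 to 8.76%. The cause was not tested.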

How the results depend on the processing

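No member row, tile or locus passed the adjusted threshold under any alternative run, for diet, and no locus did for sex or interaction. The oocyte and other paternal list gave 2 calls (Impact and Peg13), or 3 with Zrsr1 added. Signs at the members were less firm. With each sample left out in turn, the plain diet difference of the group means (not adjusted for sex) ranged from -0.453 to 1.72 points at H19, from -0.783 to 0.825 at Igf2 and from -2.71 to -0.0458 at Rasgrf1. The sign of this plain difference turned at H19 without HFD female 3, and at Igf2 without HFD female 2, 3 or 4 or RD male 2. The tiles ranged from 0.655 to 1.97 points at H19, from 1.67 to 4.98 (142660805), -2.55 to -1.08 (142664367), -6.17 to -2.30 (142665138) and -6.34 to -4.24 (142665539) at Igf2, and from -3.30 to 0.233 at Rasgrf1. The sex difference ranged from 1.16 to 2.70 at H19, from -3.34 to -1.87 at Igf2 and from -3.20 to 0.0370 at Rasgrf1, and the interaction from 2.02 to 5.57 at H19, from -3.50 to 2.37 at Igf2 and from -5.79 to 0.673 at Rasgrf1. None was a call. With missing values allowed, the differences were 2.34, -1.46 and -2.85 points at H19, Igf2 and Rasgrf1.

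With the replicate number as a block, 0 members and 2 listed genes passed, and the calls over all genes went from 9 to 2. Whether equal numbers pair the samples is not known. Over 8 same-numbered pairs across the diets, the correlation over tiles of deviations from the group means was -0.0491 to 0.0197. With groups of 2 to 4 mice and no differently numbered pairs beside them, these values cannot decide it. No read counts are given, so a coverage minimum was not run, and noise from low depth cannot be separated from differences between mice.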
